A study of Mus musculus with 4 samples.

Results

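The 8 genes described here encode the integrin chains by which leukocytes are sorted and named: Itgax (the alpha chain CD11c), Itgam (CD11b), Itgal (CD11a), Itgb2 (CD18), Itga4 (CD49d), Itgb1 (CD29), Itgb7 and Itgae (CD103). They were taken by name, out of 27998 genes in the deposited tables. No cutoff on a measured value was used, but earlier results of these data were known when they were chosen. The study sorted CD11b+ splenocytes by flow cytometry from mice in steady state and from mice given 3 once-daily subcutaneous injections of 10 µg GM-CSF, a cytokine that drives myeloid cells, with cells taken 24 h after the last injection. The wild-type mice of the study were C57BL/6, and how many mice gave each library is not given in the sources used here. Each condition was 1 CITE-seq library, in which RNA molecules are counted as unique molecular identifiers (UMIs) and 5 antibodies carrying DNA tags (against CD11c, CD115, CD301b, Ly6C and MHC II) are counted in the same cells. The cells were labelled with 12 cell types, and the monocyte, macrophage and dendritic cell (DC) clusters were analysed again as a bundle of 17 clusters called MoMacDC here.

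Integrins are pairs of 1 alpha and 1 beta chain that bind other cells and matrix after activation from inside the cell. CD18 pairs with CD11a (LFA-1, which binds the ICAM ligands), CD11b (Mac-1, a receptor for complement fragments and fibrinogen) or CD11c, the marker by which DCs are usually gated. CD49d pairs with CD29 in a receptor for VCAM-1 and fibronectin or with the Itgb7 chain in a gut-homing receptor, and CD103 pairs with Itgb7 and binds E-cadherin. In mice CD103 marks intraepithelial T cells and some conventional DCs.

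The steady-state library held 4827 cells and 22358903 UMIs, and the GM-CSF-treated library held 6804 cells and 35007567 UMIs. The bundle held 2135 steady-state cells (median 6894 UMIs) and 3940 GM-CSF-treated cells (median 6654). Levels are UMIs per 1000000 UMIs of the summed cells (CPM), with exact Poisson 95% intervals in parentheses. Ratios carry exact 95% intervals from the binomial share of their UMIs. All of these intervals, and the limit that a count of 0 allows (3 UMIs), cover counting error only. With 1 library per condition there was no replicate, no difference between conditions was tested, and GM-CSF and the library cannot be told apart. A sum over cells also cannot tell fewer expressing cells from less RNA per cell. The 2 libraries shared 8 cell barcodes, 3 of them in the bundle. The label of 1 cell type went against its markers. The cells labelled cDC2-A carried NK cell genes at a summed 18484 CPM in steady state and 19258 CPM after GM-CSF, with cDC1 genes at 0 and cDC2 genes at 19.8 and 15.9 CPM, so they are called the NK-marker cluster here. The 43 steady-state cells of MoMacDC_c4 carried the same NK genes at 11399 CPM, against 0.349 CPM in its 595 GM-CSF-treated cells.

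Itgax and Itgam are neighbours, and with Itgal they lie on the plus strand of chromosome 7 (GRCm38, GENCODE). Itgal spans chr7:127296260-127335138, Itgam chr7:128062640-128118491 and Itgax chr7:128129547-128150657, so Itgax starts 11056 bases after Itgam ends. Itgb2 lies at chr10:77530252-77565708, Itga4 at chr2:79255426-79333123, Itgb1 at chr8:128685654-128733200, Itgb7 at chr15:102215995-102231944 (minus strand) and Itgae at chr11:73090583-73147446. Itgam overlaps the annotated gene Gm49368 on its own strand, so its reads could be shared, and Gm49368 was not among the genes counted. The promoters of Itgax and Itgam are shown because the ratios of these neighbours between the libraries, given further on, lay on opposite sides of 1. Each is 250 bases before to 50 bases after the RefSeq start (GRCm38.p6, plus strand, chr7:128129300-128129599 and chr7:128062390-128062689), with GAGGAA, a core of PU.1-type binding motifs, and TGTGGT, a core of RUNX-type motifs, in capitals on either strand (TTCCTC and ACCACA when read on the other).
Itgax: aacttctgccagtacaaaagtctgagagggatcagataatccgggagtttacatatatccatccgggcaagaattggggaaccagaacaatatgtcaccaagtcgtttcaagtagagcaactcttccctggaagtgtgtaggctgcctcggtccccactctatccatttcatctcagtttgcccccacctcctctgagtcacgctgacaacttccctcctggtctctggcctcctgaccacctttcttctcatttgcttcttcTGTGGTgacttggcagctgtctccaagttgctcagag
Itgam: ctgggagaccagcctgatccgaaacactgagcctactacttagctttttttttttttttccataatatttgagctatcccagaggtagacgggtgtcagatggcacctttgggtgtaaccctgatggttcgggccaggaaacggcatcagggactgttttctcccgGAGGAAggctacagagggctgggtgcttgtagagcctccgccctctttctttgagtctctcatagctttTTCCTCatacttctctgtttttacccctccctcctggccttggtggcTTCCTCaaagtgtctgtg
Itgam holds GAGGAA 3 times (starting at -84 on the given strand and at -15 and 33 on the other, counted from the start site) and Itgax holds TGTGGT once (at 14). Among 32851 promoters of this length in the RefSeq table, 28.3% hold GAGGAA and 16.8% hold TGTGGT on either strand. The matches are a description of these letters and not binding sites. Promoters were found for 5 of the 8 genes, and among the other 3 of these Itga4 holds TGTGGT once and Itgb1 and Itgb7 hold GAGGAA once each. No match overlaps another.

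Across the MoMacDC bundle, RNA for CD11c was higher and RNA for the other chains of the CD18 family was lower in the GM-CSF-treated library. Itgax stood at 104 CPM (98.8 to 109) in steady state and 229 CPM (223 to 235) after GM-CSF, a ratio of 2.2 (2.08 to 2.33). Itgal went the other way, from 833 CPM (819 to 848) to 205 CPM (200.1 to 211), a ratio of 0.247 (0.239 to 0.255). Itgam, the chain on which the cells were sorted, stood at 320.0 CPM (311 to 329) and 152 CPM (148 to 157), a ratio of 0.476 (0.456 to 0.496). Their shared beta chain Itgb2 stood at 518 CPM (506 to 529.6) and 217 CPM (212 to 223), a ratio of 0.42 (0.406 to 0.434). Over the whole bundle the partners of CD18 no longer stood in the same order, with Itgal captured more often than Itgax in steady state and Itgax more often than Itgal after GM-CSF. Among the 7 clusters compared further on, that change was seen only in cluster 3. After GM-CSF Itgal still stood above Itgax in clusters 2 (326 and 158 CPM), 4, 5, 6 and 11. In cluster 9 Itgax stood above Itgal in both libraries. UMIs were counted at 3′ ends and not divided by length, so that order is one of molecules captured.

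Of the chains of the other families, Itgb1 and Itgb7 differed less, the interval of Itga4 met that of Itgam, and Itgae differed most. Itga4 stood at 707 CPM (693 to 720.2) and 359.9 CPM (353 to 367), a ratio of 0.509 (0.495 to 0.524) that lies just short of 2-fold. Its partner Itgb1 had a ratio of 0.613 (0.586 to 0.641) and Itgb7 one of 0.901 (0.862 to 0.941). Itgae had 3 UMIs in the steady-state bundle and 312 after GM-CSF, 0.201 CPM (0.0414 to 0.586) and 11.5 CPM (10.3 to 12.9), a ratio of 49.3 (19.5 to 279.9). With every cell drawn to 1000 UMIs the Itgae ratio was 6.8 (2.51 to 39.5), on too few UMIs for a call. Counting a gene as called at 2-fold or more with at least 50 UMIs over both libraries, Itgax and Itgae were 2 of 8 called higher, where 8.66% of 10860 genes were. Itgam, Itgb2 and Itgal were 3 of 8 called lower, where 9.46% of those genes were. The median log2 ratio was -0.84 over the 8 genes and -0.06 over all genes counted. With the total taken without the 50 genes that had most UMIs, the ratio of Itgam was 0.507, past the 2-fold limit no longer. NK genes stood at a summed 347 CPM in the steady-state bundle and 3.84 CPM after GM-CSF. Without clusters 7 and 8, whose steady-state cells carried them, the ratio was 2.46 for Itgax, 0.257 for Itgal, 0.498 for Itgam, 0.44 for Itgb2 and 0.546 for Itga4.

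**Figure D1:**
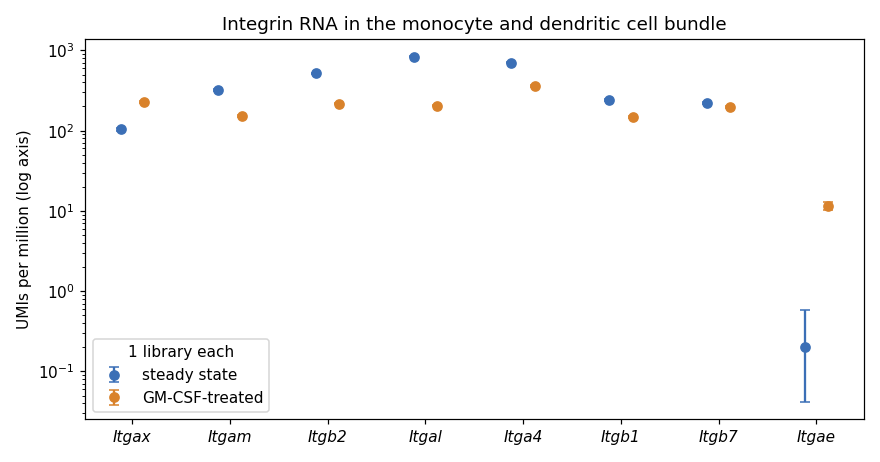
Level of each integrin gene in the MoMacDC bundle (counts per 1000000, log axis), 1 point per library with its exact Poisson 95% interval, which is narrower than the point for most genes. Itgax and Itgae stand higher after GM-CSF (orange), and the other 6 stand lower than in steady state (blue).

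The mix of cells differed between the libraries, and the same ratios were taken within the 7 bundle clusters that had at least 50 cells in each. Itgax was higher after GM-CSF in 6 of the 7, and in each of the 6 the interval of the ratio stayed above 1. The ratios were 10.9 (4.36 to 39.4) in cluster 6, 7.01 (4.61 to 11.1) in cluster 5, 2.88 (2.26 to 3.69) in cluster 11, 2.73 (2.22 to 3.39) in cluster 2, 2.26 (1.85 to 2.83) in cluster 3 and 1.29 (1.04 to 1.58) in cluster 4. Clusters 5 and 6 were mostly MoMacDC_c1 cells in which Itgax was scarce in steady state, at 9.68 (6.67 to 13.6) and 2.27 (0.739 to 5.31) CPM, and it was still scarce after GM-CSF, at 68.5 (53.3 to 86.6) and 26.6 (16.9 to 40.0) CPM. Cluster 9, mostly cells labelled Progenitor DC, was the exception. There Itgax went from 397 (359 to 438) CPM in steady state to 225 (201 to 250) CPM after GM-CSF, a ratio of 0.565 (0.487 to 0.655).

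The lower levels of the other chains were present in every one of the 7 clusters for 5 genes. Itgb2 had ratios of 0.496 to 0.739, Itga4 of 0.55 to 0.728, Itgam of 0.527 to 0.862, Itgal of 0.287 to 0.861 and Itgb1 of 0.543 to 0.909. The interval lay below 1 in all 7 clusters for Itgb2 and Itga4, in 6 for Itgam and Itgal and in 4 for Itgb1. Itgal spread most. The ratio was 0.287 (0.231 to 0.354) in cluster 9 and 0.298 (0.254 to 0.346) in cluster 11, and its interval reached 1 in cluster 3, at 0.847 (0.706 to 1.03). Itgb7 was mixed, higher in cluster 4 at 1.43 (1.09 to 1.84) and in cluster 9 at 1.32 (1.09 to 1.61), and below 1 in the other 5, in 3 of them with the interval. The bundle-wide ratio of Itgal (0.247) was lower than its median within clusters (0.325), and the share of cluster 4, where Itgal stood at 2218 (2152 to 2285) CPM in steady state, was 460 of 2135 cells in steady state and 139 of 3940 after GM-CSF.

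**Figure D2:**
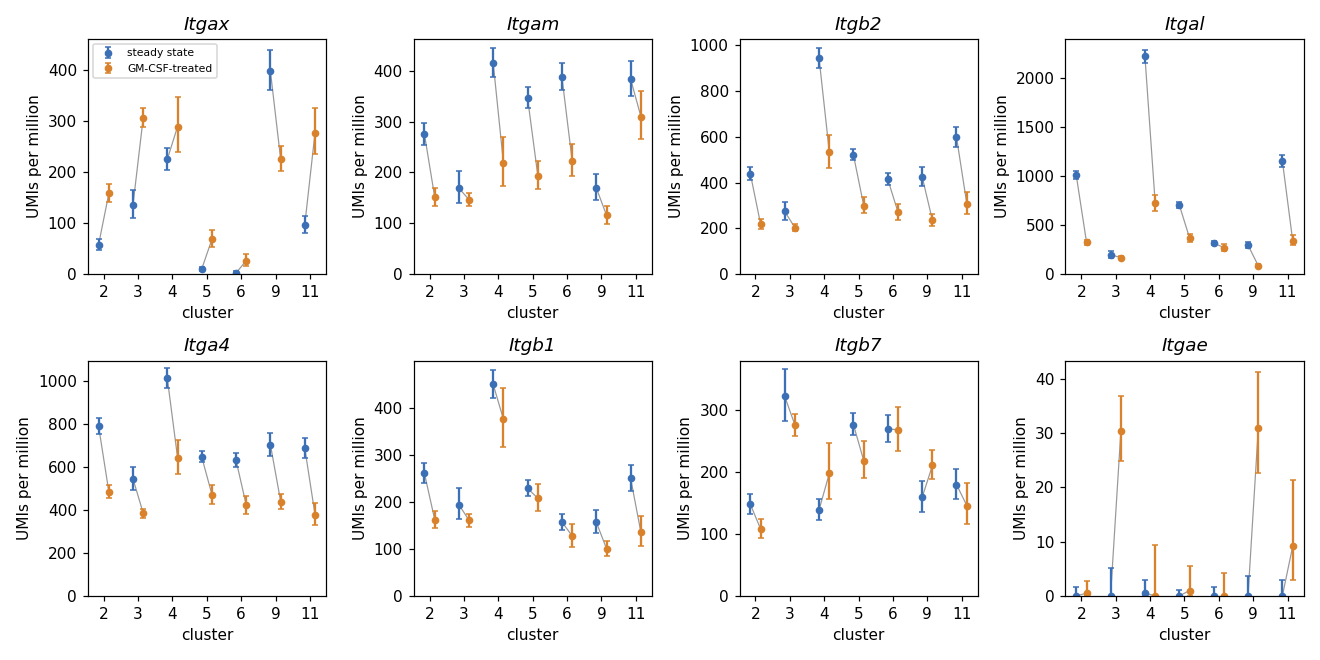
Level of the 8 genes (counts per 1000000) in the 7 bundle clusters with at least 50 cells in each library, steady state in blue and GM-CSF-treated in orange, with exact Poisson 95% intervals and a line joining the libraries of a cluster. Itgax is higher after GM-CSF in 6 clusters and lower in cluster 9, while the lines of Itgam, Itgb2, Itgal, Itga4 and Itgb1 slope down in all 7.

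Over all CD11b+ cells, Itgax was highest in cells labelled Progenitor DC in steady state, at 411 CPM (376 to 448), and lowest in neutrophils after GM-CSF, at 9.72 CPM (7.17 to 12.9). Between those ends came MoMacDC_c2 after GM-CSF at 346 CPM (334 to 358) and MoMacDC_c5 at 284 CPM (234 to 342) after GM-CSF and 225 CPM (206 to 246) in steady state. MoMacDC_c5 held the genes of non-classical monocytes, at a summed 3792 CPM in steady state. The NK-marker cluster stood at 221 CPM (191 to 255) in steady state and 207 CPM (110.3 to 354) after GM-CSF. MoMacDC_c1 went from 25.1 CPM (22 to 28.5) to 161 CPM (152 to 169), a ratio of 6.39 (5.57 to 7.37), and MoMacDC_c2 from 169 CPM (149.5 to 191) in steady state, a ratio of 2.04 (1.81 to 2.33). Progenitor DC cells went from the highest level to 208 CPM (192 to 225), a ratio of 0.505 (0.449 to 0.569). Other genes differed with it there, with cDC2 genes at a summed 377 and 163 CPM and non-classical monocyte genes at 689 and 108 CPM in steady state and after GM-CSF, and their part in the ratio was not tested. In MoMacDC_c1 classical monocyte genes stood at 3089 and 785 CPM. Of 22 neighbouring pairs in the order of the 23 groups with at least 20 cells, 21 had intervals that met, and the pair that did not was the first, Progenitor DC in steady state over MoMacDC_c2 after GM-CSF. Drawn to 1000 UMIs per cell, 38.4% (30.6 to 46.7) of Progenitor DC cells had an Itgax UMI in the steady-state library and 20.1% (16.2 to 24.4) after GM-CSF, against 2.98% (2.11 to 4.06) and 16.7% (14.7 to 18.8) of MoMacDC_c1 cells.

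Cell types not known for CD11c gave the comparison level for Itgax. B cells stood at 34.2 CPM (23.1 to 48.9) in steady state and 39.8 CPM (19.1 to 73.3) after GM-CSF, T cells at 16.5 CPM (8.53 to 28.8) and 10.3 CPM (0.261 to 57.3), and neutrophils at 11 CPM (5.68 to 19.2) and 9.72 CPM (7.17 to 12.9). The cells labelled granulocytes, which carried neutrophil genes at a summed 104727 and 101965 CPM, held Itgax at 77.3 CPM (68.6 to 86.8) and 181 CPM (165 to 199), a ratio of 2.34 (2.01 to 2.73) between the libraries. Within the GM-CSF-treated library granulocytes exceeded neutrophils by 18.5 (13.8 to 25.6) fold in Itgax and by 1.13 (1.06 to 1.21) fold in Itgam. At 1000 UMIs per cell, 17.3% (15.3 to 19.5) of granulocytes and 1.7% (0.957 to 2.8) of neutrophils had an Itgax UMI, with 496 granulocytes and 13 neutrophils left out as shallower. Without thinning the shares were 20.9% and 4.14% at median depths of 1229 and 4404 UMIs. Granulocytes with an Itgax UMI over those without had a ratio of H2-Aa, a chain of MHC II, of 0.567 (0.187 to 1.21) in steady state and 1.08 (0.733 to 1.53) in the GM-CSF-treated library.

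Itgam was highest in the neutrophil lineage, at 745 CPM (695 to 798) in steady-state neutrophils and 617 CPM (586 to 649) in GM-CSF-treated granulocytes, and lowest in T cells, at 44 CPM (30.1 to 62.1) in steady state and 0 UMIs after GM-CSF, which allows up to 30.9 CPM. The difference in Itgam between the libraries was not shared by granulocytes, where the ratio was 1.06 (0.995 to 1.14). In neutrophils Itgam was lower after GM-CSF, at 546 CPM (525 to 567), with the intervals apart. Itgb2 stood at a ratio of 1.13 (1.06 to 1.21) in granulocytes and 0.983 (0.902 to 1.07) in neutrophils, against 0.472 (0.447 to 0.498) in MoMacDC_c1. Itgal was highest in steady-state MoMacDC_c5, with 2171 CPM (2109 to 2234). After GM-CSF it stood at 724 CPM (642 to 814) in MoMacDC_c5 and 796 CPM (761 to 833) in granulocytes, with intervals that met. Its ratio was 0.334 (0.295 to 0.376) in MoMacDC_c5, 0.39 (0.372 to 0.408) in MoMacDC_c1, 0.225 (0.136 to 0.339) in B cells and 0.921 (0.869 to 0.974) in granulocytes. By CPM Itgal was also lower in neutrophils, at 0.708 (0.62 to 0.813), and the B cell ratio came from 22 UMIs after GM-CSF. Drawn to equal depth, 17.9% (12.7 to 24.1) of steady-state and 11.7% (5.49 to 21.0) of GM-CSF-treated B cells had an Itgal UMI. These intervals met, as did those of the shares in neutrophils, at 20.5% (14.3 to 28.0) and 20.8% (18.2 to 23.6). The T cell intervals also met, at 356 (314 to 402) and 329 (225 to 465) CPM. The difference in Itgal was small in granulocytes.

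Itga4 was highest in the NK-marker cluster in steady state, at 1267 CPM (1193 to 1345), followed by MoMacDC_c5 at 985 CPM (944 to 1028). Itga4 was low in neutrophils, at 104 CPM (85.3 to 125) and 70.3 CPM (63.1 to 78.1), and in B cells it went from 486 CPM (441 to 535) to 187 CPM (138 to 249). Itgb1 shared its leading groups, 509 CPM (462 to 559) in the NK-marker cluster and 425 CPM (398 to 453) in MoMacDC_c5 in steady state, and its ratio between the libraries pointed opposite ways at 2.09 (1.65 to 2.65) in granulocytes and 0.436 (0.312 to 0.621) in neutrophils. Itgb7 ran from 385 CPM (329.8 to 447) in the steady-state MoMacDC_c4 cells, which carry NK genes, and 329 CPM (225 to 465) in GM-CSF-treated T cells down to 4.25 CPM (2.63 to 6.5) in GM-CSF-treated neutrophils, with 0 UMIs in the 22 macrophages of that library. For Itgb7 and Itgae the intervals of all 22 neighbouring pairs met, so neighbours in their orders cannot be told apart.

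Itgae RNA was found mainly in T cells in steady state and also in MoMacDC_c2 and Progenitor DC cells after GM-CSF. Steady-state T cells held 22 UMIs, or 30.3 CPM (19 to 45.8). MoMacDC_c2 held 0 in steady state, which allows up to 1.88 CPM, and 210 UMIs or 22.5 CPM (19.6 to 25.8) after GM-CSF, at least 12-fold higher than that limit. Progenitor DC cells held 1 UMI in steady state and 58 after GM-CSF, at 19.5 CPM (14.8 to 25.2), a ratio of 16.2 (4.15 to 966). MoMacDC_c1 held 10 UMIs in 1342 GM-CSF-treated cells. In the GM-CSF-treated bundle 224 of 3940 cells had an Itgae UMI, with 14.4% of cluster 9, 13.1% of cluster 3 and 10.3% of cluster 0. Within clusters, 103 UMIs stood against 0 in cluster 3 and 46 against 0 in cluster 9, at least 7.35-fold and 10.3-fold higher. These 224 cells were deeper (median 7555 against 6588 UMIs), so their makeup is given as CPM. Itgax was 1.53 (1.41 to 1.67) times as high in them as in the other cells, Mgl2 (which encodes CD301b) 2.07 (1.92 to 2.23) times, Cd209a 2.37 (2.2 to 2.54) times and Ly6c2 0.115 (0.0652 to 0.18) times. Their median CD301b tag was 174.5 against 15, and their median CD11c tag 329 against 156. Of the cDC1 genes, Xcr1 and Cadm1 were at 0 UMIs in them, and Cd8a, Tlr3 and Clec9a held 1, 6 and 8. The 3716 other cells held only 15 and 16 UMIs of Xcr1 and Cadm1. Clec9a stood at 4.35 and 2.5 CPM and Tlr3 at 3.26 and 2.97 CPM in cells with and without an Itgae UMI. The ratio intervals of all these cDC1 genes held 1, so the counts show no difference in either direction. When the bundle was drawn to 1000 UMIs per cell, 40 cells kept an Itgae UMI and the ratio was 0.705 (0.238 to 1.42) for Itgax, 1.26 (0.574 to 2.22) for Mgl2, 0.207 (0 to 1.54) for Ly6c2 and 2.49 (1.5 to 3.75) for Cd209a, so the interval stayed clear of 1 for Cd209a and not for the other 3.

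The study gated CD115hi cells by tags into 4 subsets. The deposited subset labels are used here, and their cell numbers differ from those the study prints for these subsets. P-I held classical monocytes, P-II non-classical monocytes, P-III the pre-GMiDCs and P-IV the GM-CSF-induced DCs (GMiDCs). Most bundle cells lay outside these subsets, with 1952 of 2135 steady-state and 3256 of 3940 GM-CSF-treated cells labelled CD115-. Itgax stood at 107 (102 to 113) CPM in these steady-state cells and 217 (211 to 223) CPM in these GM-CSF-treated cells. CD115, Ly6C, MHC II and CD301b set the gates, and the RNA of the integrins did not. Itgax is nonetheless among the genes that the study picked as enriched in P-IV on these cells, so its level in P-IV is a description and not independent evidence. In the GM-CSF-treated library Itgax stood at 159 (139 to 182) CPM in 187 P-I cells, 279 (242 to 319) CPM in 126 P-III cells and 371 (346 to 397) CPM in 313 P-IV cells, and these 3 intervals did not meet. The 8 P-II cells gave 252 (101 to 519) CPM. P-IV over P-I was 2.32 (2.0 to 2.71), and it was 1.96 in cells with at most 5% mitochondrial UMIs and 1.99 without cells in S or G2M phase, both short of 2-fold. Itgal was lower in P-IV, with 283 (256 to 313), 303 (265 to 345) and 185 (168 to 204) CPM in these 3 subsets. Itgae was at 0 UMIs in P-I, which allows up to 2.15 CPM, at 4 UMIs or 5.41 (1.47 to 13.8) CPM in P-III and at 38 UMIs or 16.9 (12 to 23.2) CPM in P-IV, at least 7.86-fold higher than the limit in P-I. Itgam, Itgb2 and Itga4 were slightly lower in P-IV than in P-I, at ratios of 0.822 (0.686 to 0.986), 0.847 (0.732 to 0.982) and 0.773 (0.691 to 0.866), while Itgb7 was higher at 1.41 (1.18 to 1.69) and Itgb1 had a ratio of 0.989 (0.828 to 1.18). Of the 7 genes with 50 UMIs, Itgax alone was called 2-fold higher in P-IV, where 3.63% of 6803 genes were, and 0 were called lower, where 3.53% were.

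The same gate held cells of both libraries, and P-I had 139 steady-state and 187 GM-CSF-treated cells. Itgax stood at 43.9 (32.4 to 58.2) CPM in steady-state P-I, so it was 3.59 (2.64 to 5.06) times as high after GM-CSF within this gate. In the same P-I comparison Itgal was at 0.314 (0.278 to 0.353), Itgam at 0.426 (0.359 to 0.503), Itgb2 at 0.456 (0.396 to 0.523), Itga4 at 0.572 (0.512 to 0.639), Itgb1 at 0.659 (0.544 to 0.796) and Itgb7 at 0.548 (0.448 to 0.667). Itgax was 1 gene of 7 called higher, where 4.99% of 5774 genes were, and Itgam, Itgb2 and Itgal were 3 called lower, where 7.12% were. The gate itself sat at different counts in the libraries, with a CD115 tag of at least 21 and a Ly6C tag of at least 195 in steady-state P-I and of at least 84 and 47 in GM-CSF-treated P-I. The part of that shift in the ratios was not tested. In steady state P-III and P-IV had 12 and 7 cells, with Itgax at 221 (131 to 350.1) and 295 (169 to 479) CPM and Itgal at 1846 (1562 to 2166) and 1383 (1088 to 1734) CPM. Itgal stood above 185 CPM, its level in GM-CSF-treated P-IV, in each steady-state subset.

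**Figure D3:**
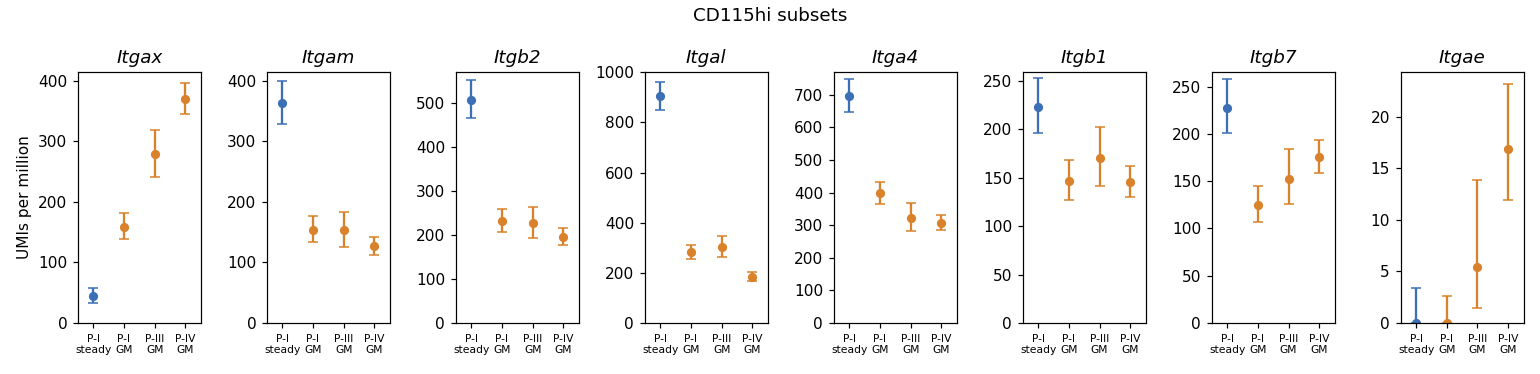
Level of the 8 genes (counts per 1000000, axes from 0) in steady-state P-I cells (blue) and in 3 subsets of GM-CSF-treated cells (orange, named on the axis), with exact Poisson 95% intervals. Itgax runs from 43.9 in steady-state P-I to 371 in P-IV, and Itgal, Itgam, Itgb2 and Itga4 stand lower in all 3 GM-CSF-treated subsets than in steady-state P-I.

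The CD11c tag measured the protein on the same cells. Tag counts were not scaled between the libraries, and the tag on cell types not known for CD11c was itself higher after GM-CSF, with medians of 1 and 8 on B cells, 1 and 5 on T cells and 1 and 6 on neutrophils in steady state and after GM-CSF. On the bundle the median was 8 in steady state and 163 after GM-CSF. MoMacDC_c1 had medians of 3 and 97, MoMacDC_c2 of 79 and 210 and MoMacDC_c5 of 57 and 93. On Progenitor DC cells the tag was 381.5 in steady state and 372 after GM-CSF, side by side with an Itgax ratio of 0.505, so a lower RNA level went with a similar tag median in these cells. Granulocytes had a median tag of 2 and 10, at the level of B cells, although their Itgax level of 181 CPM after GM-CSF stood beside 161 CPM in MoMacDC_c1, whose tag median was 97. The tag is a count per cell and the RNA level is not, and granulocytes were shallower (median 1229 against 6413 UMIs). In UMIs per cell granulocytes also held less Itgax, with 437 UMIs in 1791 cells against 1392 in 1342 cells of MoMacDC_c1. Within granulocytes Itgax was higher in the upper than in the lower part of the tag, split at its median, by 2.02 (1.57 to 2.61) fold in steady state and 1.95 (1.6 to 2.39) fold in the GM-CSF-treated library. The NK-marker cluster lay between, with Itgax at 221 and 207 CPM and tag medians of 25 and 28.5.

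**Figure D4:**
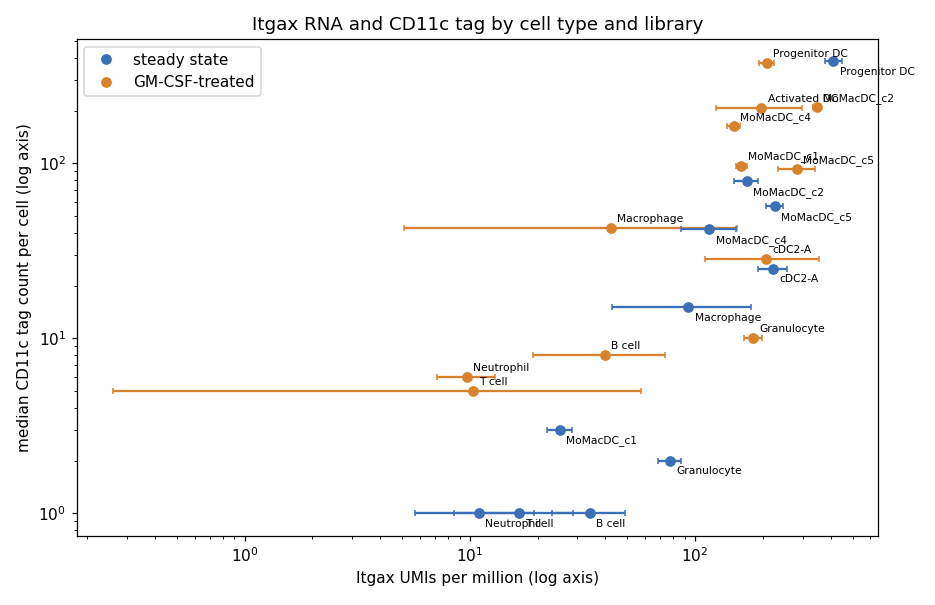
Itgax RNA (counts per 1000000, log axis, exact Poisson 95% interval) against the median CD11c tag count per cell (log axis) for the cell types with at least 20 cells in a library, steady state in blue and GM-CSF-treated in orange. With the RNA axis per UMI and the tag axis per cell, granulocytes lie at tags of 2 and 10, and Progenitor DC cells lie at the top right.

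Within each library, cells with more CD11c tag held more Itgax RNA. Steady-state bundle cells were divided into 4 tag classes of near-equal size, from the lowest to the highest tag, with equal counts kept together. Itgax stood at 7.9 CPM (5.4 to 11.2), 14.2 CPM (10.6 to 18.7), 87 CPM (77.2 to 97.7) and 298 CPM (281 to 316) in tag classes with tag medians of 1, 4, 21 and 170. The highest tag class exceeded the lowest 37.2 (26.6 to 55.4) fold. After GM-CSF the tag classes gave 99.6 CPM (91.9 to 108), 211 CPM (199.5 to 222), 279.9 CPM (267 to 293) and 299 CPM (287 to 311) at tag medians of 50, 121, 219 and 433, a ratio of 3.0 (2.75 to 3.29). That ratio was 1.59 (1.47 to 1.71) with cells ordered by the share of CD11c among a cell's tag counts and 1.94 (1.79 to 2.1) by the centred log ratio of CD11c less that of the other tags. The intervals of the 2 libraries met in the highest tag class and lay apart in the lowest. The lowest steady-state tag class lay at the background level of neutrophils and T cells, while the lowest GM-CSF-treated tag class lay above it. Itgax UMIs per cell and the tag had Spearman's rho of 0.62 over 2135 steady-state cells and 0.45 over 3940 GM-CSF-treated cells, a description over cells of 1 library that share its depth. Depth alone had rho of -0.10 and 0.27 with the tag. Among cells of 5000 to 9000 UMIs the tag class ratio was 38.4 (23.8 to 71.2) in steady state and 3.0 (2.69 to 3.36) in the GM-CSF-treated library.

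Read the other way, steady-state bundle cells with 0, 1, 2 and 3 or more Itgax UMIs had median CD11c tags of 4, 44, 101 and 301. GM-CSF-treated cells with 0 to 3 or more UMIs had 93, 155, 196 and 268.5. Cells without an Itgax UMI were 69.6% of the steady-state bundle and 32.7% of the GM-CSF-treated bundle, and after GM-CSF their tag median was above the B cell median of 8. Within equal ranges of the tag, Itgax stood at 12.6 (10.3 to 15.2) and 24.2 (7.87 to 56.6) CPM in steady-state and GM-CSF-treated cells with 0 to 9 counts, the latter from 5 UMIs in 40 cells. With 10 to 29 counts it stood at 74.6 (62 to 88.9) and 35.9 (27.1 to 46.6) CPM, with 30 to 99 counts at 156 (139 to 175) and 136 (126 to 146) CPM, with 100 to 299 counts at 314 (285 to 345) and 253 (244 to 262) CPM and with 300 or more at 344 (317 to 372) and 299 (287 to 311) CPM. The GM-CSF-treated level was lower, with the intervals apart, in the ranges of 10 to 29, 100 to 299 and 300 or more counts. Tag counts were not scaled between the libraries, and the tag on B cells, T cells and neutrophils was higher after GM-CSF. Equal counts therefore need not mean equal protein, and the part of this in the lower levels was not tested. The libraries differed in how many cells lay in each range. Fewer than 10 counts were found on 53.4% of steady-state cells and 1.02% of GM-CSF-treated cells, and 9.93% and 46.1% had 100 to 299.

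**Figure D5:**
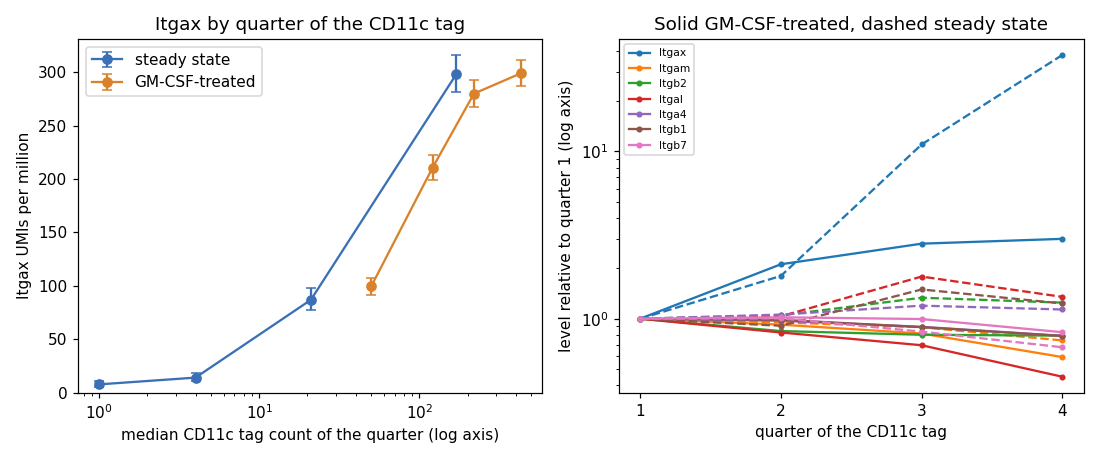
Left, Itgax level (counts per 1000000, exact Poisson 95% interval) against the median CD11c tag count (log axis) of each tag class of the bundle cells, by library. Right, the level of 7 integrin genes in each tag class relative to the lowest (log axis), solid lines GM-CSF-treated and dashed lines steady state, without Itgae, which was near 0 in steady state. Itgax increases with the tag in both libraries, 37.2-fold in steady state and 3.0-fold after GM-CSF, and the other 6 end between 0.450 and 1.35 times the lowest tag class.

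Apart from Itgae, the other chains differed less along the CD11c tag than Itgax did. From the lowest to the highest tag class of the CD11c tag, the ratios of Itgam, Itgal, Itgb2, Itga4, Itgb1 and Itgb7 lay between 0.675 (Itgb7) and 1.35 (Itgal) in steady state and between 0.45 (Itgal) and 0.831 (Itgb7) after GM-CSF. Itgae followed the tag too, with 4 UMIs in the lowest GM-CSF-treated tag class and 173 in the highest, a ratio of 29.1 (12.5 to 121). Itgax also followed other tags, by 9.34 (7.54 to 11.8) fold across tag classes of MHC II and 0.0499 (0.0374 to 0.0644) fold across tag classes of Ly6C in steady state, and by 2.32 (2.13 to 2.52) and 0.40 (0.368 to 0.435) fold after GM-CSF. Across tag classes of CD301b it pointed opposite ways, 0.202 (0.17 to 0.237) in steady state and 1.88 (1.75 to 2.03) in the GM-CSF-treated library. For scale, the RNA of the other tagged proteins ran 1.5 (1.41 to 1.59) and 2.38 (2.18 to 2.61) fold for Csf1r (CD115), 82.5 (63.7 to 111) and 146 (78.4 to 359) for Ly6c2, 180.4 (146 to 229) and 3.05 (2.99 to 3.11) for H2-Aa and 11.8 (4.94 to 49.4) and 61.3 (47 to 83.3) for Mgl2, across tag classes of their own tags in steady state and after GM-CSF.

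With tag classes taken inside each cluster the highest tag class exceeded the lowest 2.47 (2.14 to 2.88) fold in steady state and 1.79 (1.66 to 1.94) fold after GM-CSF. With clusters split at their own median tag, Itgax was higher in the upper part in 5 of 7 steady-state clusters with at least 50 cells, in 4 of them with the interval above 1, and in 12 of 13 GM-CSF-treated clusters, in 10 with the interval. In steady state the ratio was 5.66 (3.56 to 9.84) in cluster 2 and 2.02 (1.63 to 2.51) in cluster 4, and after GM-CSF it was 15.9 (3.76 to 960.3) in cluster 6, from 1 UMI in the lower part and 22 in the upper, 2.84 (2.37 to 3.42) in cluster 8 and 1.22 (1.11 to 1.35) in cluster 0. Cluster 9 again stood apart, with 0.772 (0.631 to 0.947) in steady state and 0.856 (0.687 to 1.07) in the GM-CSF-treated library, although rho there was 0.20 and 0.17. The cells of its upper part were deeper, with medians of 8488 against 6201 UMIs in steady state and 6940 against 5334 after GM-CSF, so UMIs per cell and CPM pointed opposite ways. By subset, the upper over the lower part gave 4.75 (2.3 to 12.3) in steady-state P-I, 2.25 (1.68 to 3.06) in GM-CSF-treated P-I, 1.37 (1.03 to 1.84) in P-III and 1.14 (0.994 to 1.32) in P-IV, where the interval reached 1.

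Other genes of integrin adhesion were followed as a list of 61 in the bundle, of which 41 had at least 50 UMIs. After GM-CSF 4 of these were called at least 2-fold higher and 13 at least 2-fold lower, and their median log2 ratio was -0.71 against -0.06 over all genes, beside the shares of 8.66% and 9.46% of all genes given before. The 4 that were higher were ligands. Cdh1 (E-cadherin, the ligand of CD103) had a ratio of 13.6 (0.535 CPM in steady state, 7.72 after GM-CSF), Vcam1 of 3.37 (0.936 CPM in steady state, 3.25 after GM-CSF), Spp1 (osteopontin) of 2.46 (2.41 CPM in steady state, 5.98 after GM-CSF) and F11r (JAM-A, a ligand of LFA-1) of 2.12 (13.6 CPM in steady state, 28.8 after GM-CSF). Of 9 ligands with enough UMIs 4 were lower, among them Thbs1 (thrombospondin) at 0.0235 (144 CPM in steady state, 3.36 after GM-CSF), Fn1 (fibronectin) at 0.251 (979 CPM in steady state, 246 after GM-CSF) and Icam2 at 0.474 (23.1 CPM in steady state, 11 after GM-CSF). The other beta chains with enough UMIs, Itgb3 and Itgb5, partners of the alphaV chain, were both lower, at 0.149 (15.2 CPM in steady state, 2.25 after GM-CSF) and 0.176 (59.5 CPM in steady state, 10.5 after GM-CSF), and of 5 other alpha chains 1 was lower, Itga8 at 0.285 (3.01 CPM in steady state, 0.849 after GM-CSF). Activators of integrins had 0 of 8 higher and 2 lower, Rasgrp2 (an exchange factor for Rap1) at 0.296 (223 CPM in steady state, 66.1 after GM-CSF) and Rap1b at 0.456 (623 CPM in steady state, 284 after GM-CSF), whereas the kindlin gene Fermt3 stood at 1.16 (164 CPM in steady state, 189.9 after GM-CSF) and the talin gene Tln1 at 0.51 (579 CPM in steady state, 296 after GM-CSF). Signalling genes had 0 of 13 higher and 4 lower, among them the kinases Fgr at 0.409 (407 CPM in steady state, 167 after GM-CSF) and Ptk2b at 0.427 (183 CPM in steady state, 78 after GM-CSF) and the adaptor Fyb at 0.365 (715 CPM in steady state, 261 after GM-CSF). The 4 inhibitors were called in neither direction.

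By the pattern of log2(CPM + 10) over the 23 groups of cell type and library with at least 20 cells, among 8048 genes with at least 500 UMIs, the genes most like Itgax were Efhd2 (Pearson's r 0.80), Dnajc8 (0.75), Chn2 (0.75), Nptn (0.75) and Cd244 (0.74). Itgam was nearest to Myo1f (0.92), 9530068E07Rik (0.89) and Fbxo30 (0.87), and Itgal to Ptpn12 (0.92), Tmc6 (0.91) and Diaph1 (0.90). Itgb2 was nearest to Gpd2 (0.86), Itga4 to Elf4 (0.87), Itgb1 to Elk3 (0.90), Itgb7 to Smchd1 (0.88) and Itgae to Rab3ip (0.77). No integrin gene was among the genes nearest to another. These values describe 23 groups that come from only 2 libraries and share their depth and cell mix.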

How the data were processed

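Splenocytes sorted as CD11b+ gave 1 CITE-seq library per condition. The deposited counts are UMIs per gene and antibody tag counts per cell, which the authors made with Cell Ranger 3.0.2 (mm10) and Seurat 3.6.0, per the labels and methods. The authors removed cells with fewer than 200 or more than 5000 genes or more than 15% mitochondrial reads, a percent they deposited with each cell's cluster, cell type, phase and subset, all used as given. Counts were summed per group and scaled to CPM with all UMIs of the group. Ratios add 0.5 to each sum. A call is 2-fold or more with at least 50 UMIs over both sums, without a test. Cells were drawn to 1000 UMIs for shares. Scrublet in scanpy 1.11.5 marked 152 steady-state (3.15%) and 186 GM-CSF-treated cells (2.73%) as doublets, which stayed in. Scripts used Python 3.11.15, numpy 2.4.6, scipy 1.17.1, pandas 2.3.3 and matplotlib 3.10.9 and were tested on simulated data. The 8 genes and the gene lists were chosen with earlier results of these data known. All 8 integrin genes are named, with at most 12 other adhesion genes past 2-fold, those with most UMIs, and the genes most like each of the 8. A gene is not reported here. Cdh1, Spp1, Vcam1, Itga8, Fermt3, Tln1, H2-Aa and the genes of Itgae cells fall outside this rule and were named after their values were seen. Itga4 and Cerkl, and Itgae and Haspin, overlap on opposite strands.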

Additional observations from a re-analysis of the deposited data

Results flagged for a closer look

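Between cell types with at least 50 cells in each library, some ratios of GM-CSF-treated over steady-state levels lay on opposite sides of 1, with both intervals clear of 1. Itgax was at 6.39 in MoMacDC_c1 and 0.505 in Progenitor DC cells. Itgb2 was at 1.13 in granulocytes and 0.390 in B cells, and Itgb1 at 2.09 in granulocytes and 0.436 in neutrophils. Itgb7 was at 1.48 in MoMacDC_c5 and 0.735 in MoMacDC_c1. Drawn to equal depth, 12.1% (7.83 to 17.6) of steady-state and 10.4% (4.59 to 19.4) of GM-CSF-treated B cells had an Itgb2 UMI. For Itgb1 in neutrophils the shares were 1.37% (0.166 to 4.86) and 1.7% (0.957 to 2.8). For Itgb7 in MoMacDC_c5 they were 10.7% (8.11 to 13.8) and 13.7% (8.43 to 20.5). The intervals of each pair met, so by share of cells opposite directions were clear for Itgax only. With 1 library per condition none of these differences was tested.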

How the results depend on the processing

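No paired analysis was possible because each condition had 1 library and no result came from a test. The ratios of the 8 genes in the bundle, of Itgax in P-IV over P-I and of Itgax across CD11c tag classes kept their direction under the alternatives run for them. The ratio of Itgax in cells with over cells without an Itgae UMI did not, at 1.53 as deposited and 0.705 when thinned, with an interval across 1. Itgax in the bundle (2.20) was 2.0 after drawing to 1000 UMIs per cell, 2.35 with the total taken without the 50 genes with most UMIs, 2.41 in cells with at most 5% mitochondrial UMIs, 2.34 without clusters 11, 14 and 15 and 2.46 without clusters 7 and 8, which were left out after seeing the data because their steady-state cells carried NK genes. P-IV over P-I (2.32) was 1.96 at the mitochondrial limit, 1.99 without cells in S or G2M phase and 3.39 with the libraries pooled. The highest over the lowest CD11c tag class in steady state (37.2) was 2.47 within clusters and 13.9 over all CD11b+ cells. After GM-CSF (3.0) it was 2.26 when thinned, 2.56 as a mean over cells, 2.48 at the mitochondrial limit, 1.59 by the tag's share of a cell's tags, 1.94 by the centred log ratio of the tag, 1.79 within clusters and 8.06 over all cells. Of 8 genes 5 were called, 7 at 1.5-fold and 4 when thinned, where Itgae had too few UMIs. Itga4 (0.509) ranged from 0.499, past the limit, to 0.546. The median of all genes was -0.06 by CPM and 0.03 without the 50 genes (log2).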
